A study of Trametes cinnabarina with 17 samples.

Results

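Of the 9167 gene models of Pycnoporus cinnabarinus CIRM-BRFM 137 in the table of normalized counts, 102 (1.11%) were transcribed at a similar level on aspen wood, pine wood and wheat straw and at a lower level on xylan-galactomannan, Avicel and maltose. They were chosen from the measured values themselves. The mean of log2(normalized count + 1) was taken for each carbon source, and a gene was kept when its lowest mean on aspen, pine and wheat straw (the 3 plant substrates; wheat straw is also called straw below) was at least 6, when that mean exceeded the highest mean on the 3 other carbon sources by at least 1, and when the 3 plant means lay within less than 1 of each other. Of 8099 genes that passed the first criterion, 149 also passed the second and 103 met all of them. Of the 103, 1 was among 6 gene models that the rule left out by name. Below, the excess of the lowest plant mean over the highest other mean is called the margin, and the distance between the highest and the lowest plant mean the spread. Because all 6 group means entered the rule, the difference between plant substrates and other carbon sources, and the likeness of the plant substrates to each other, are described here without a test.

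All libraries came from mycelium of this single strain, a white-rot basidiomycete, taken after 3 days in liquid culture. With maltose as the carbon source its concentration was 20 g/l. The media with aspen, pine, wheat straw, Avicel (a microcrystalline cellulose) or xylan-galactomannan, which is a blend of xylans with galactomannans, had 15 g/l of the substrate beside 2.5 g/l maltose. Substrate and maltose concentration therefore changed together in each comparison with maltose, and their parts cannot be told apart. These concentrations are those of the labels, whereas the study's methods call each substrate the only carbon source, and the difference was not resolved. Each carbon source had 3 libraries except Avicel, which had 2, numbered 1 and 3, and the 17 libraries held 10668073 to 16176027 counts. In mycelium sampled in bulk, more transcript per hypha and more hyphae with the transcript cannot be told apart.

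White-rot fungi break down lignin together with the cellulose and hemicelluloses of the plant cell wall. They secrete hydrolases and oxidative enzymes, and take the released sugars up through membrane transporters, many of them of the major facilitator superfamily. Wood and straw hold polysaccharides with many kinds of side chain besides lignin and extractives, whereas Avicel is nearly pure cellulose and maltose is a readily assimilated sugar made of glucose units.

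Levels of the 102 genes covered a wide range. The median of their mean log2(normalized count + 1) was 10.77 (aspen), 10.76 (pine) and 10.70 (wheat straw), against 8.94 on xylan-galactomannan, 8.62 on Avicel and 8.22 on maltose. The lowest of the 3 plant means ran from 6.05 to 17.53 with a median of 10.59, and it exceeded 12 in 23 genes. The margin ran from 1.01 to 3.40 with a median of 1.32, and 33 genes had a margin of at least 1.5, 13 of at least 2 and 2 of at least 3. The spread ran from 0.04 to 0.999 with a median of 0.49, and it was under 0.25 in 19 genes. The highest plant mean was that on aspen in 46 genes, on pine in 33 and on wheat straw in 23.

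At the thresholds, the gene with the smallest margin kept had 1.01 and the nearest gene outside 0.99, the latter with a spread of 0.24. The largest spread kept was 0.999 and the nearest outside 1.002. The lowest plant mean kept was 6.05, and the nearest gene that met the 2 other criteria had 3.88, so that the level minimum lay in a gap. In all 102 genes the 9 plant libraries lay above the 8 other libraries, which was the case for 5.88% of all genes in the table. That separation follows largely from the rule, and 437 genes that were no members showed it too. In the members, the lowest plant library exceeded the highest other library by 0.001 to 2.98 log2 units, with a median of 0.87.

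**Figure D1:**
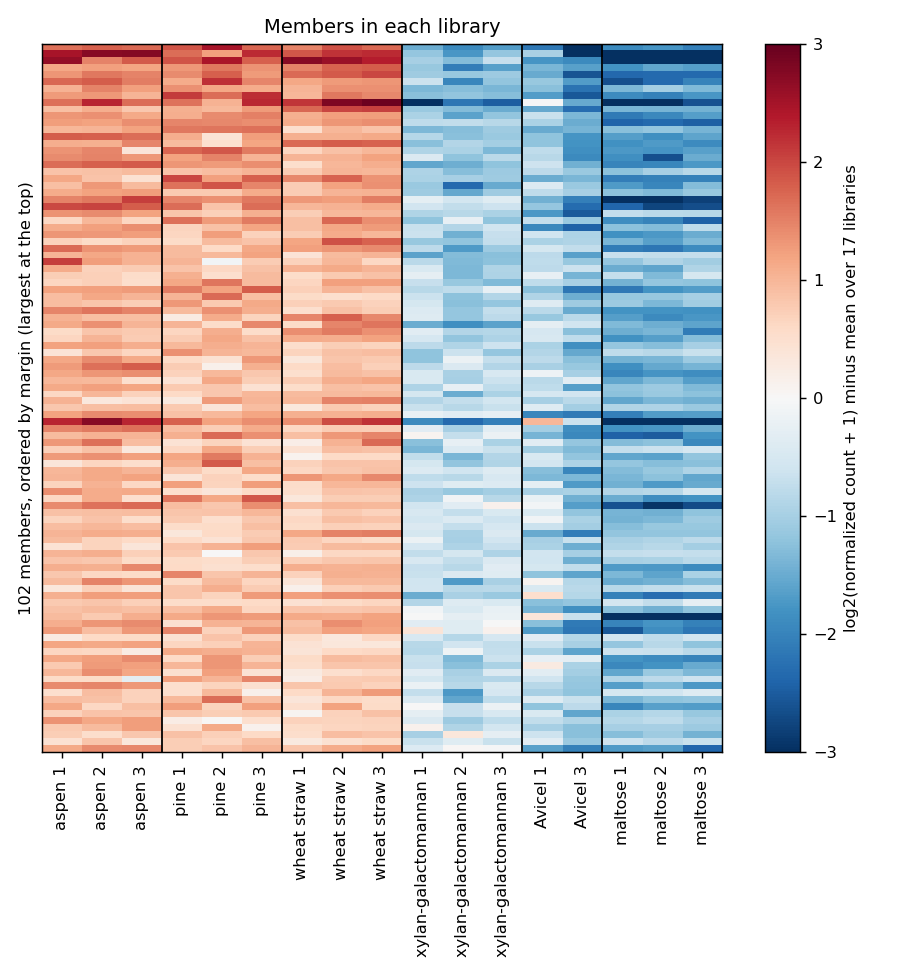
Level of each of the 102 genes (rows, ordered by margin) in each of the 17 libraries (columns), as log2(normalized count + 1) minus the mean of the gene over all libraries; colours end at -3 and 3. The 9 plant libraries on the left lie above the 8 others in every row, and among the 3 carbon sources on the right the highest mean is on xylan-galactomannan in 58 rows.

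Libraries of 1 carbon source differed across these genes in a way the rule did not use. Library 1 of Avicel was higher than library 3 in 91 of the 102 genes, with a median difference of 0.56 on the log2 scale and a range from -0.48 to 2.72, whereas over all 9167 genes the median difference was 0.007 and 51.0% were higher in library 1. The difference exceeded 0.5 in 57 members (55.9%), and in 10.2% of all genes. The standard deviation (SD) between both Avicel libraries had a median of 0.39 in the members and of 0.14 over all genes. Library 1 of wheat straw lay below its group mean in 92 of the 102 genes, with a median deviation of -0.17, against 49.3% of all genes. Both departures were present in 82 members. The share of all genes with both was not obtained, and a link between them was not tested. Library 2 of xylan-galactomannan was below its group mean in 72 members with a median of -0.17, against 52.8% of all genes. Library 1 was above it in 66 with a median of 0.14, against 49.9% of all genes. Library 3 was above it in 69 with a median of 0.04, against 51.7%. Library 2 of aspen was above its group mean in 74 members, with a median of 0.07, against 51.9% of all genes. Library 1 of pine was below its group mean in 67 members, against 47.4% of all genes. In the 8 libraries of aspen, pine and maltose other than library 2 of aspen the median deviation was between -0.04 and 0.06. Counts of members called in comparisons with Avicel are therefore given below with and without each of its libraries, as are changes of single genes described there that were called or moved with it.

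**Figure D2:**
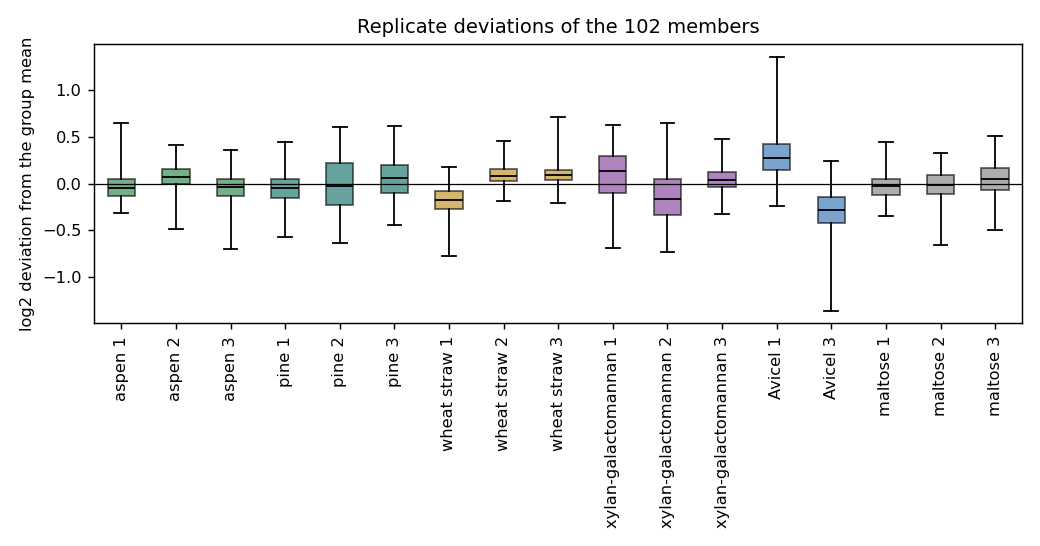
Deviation of the 102 genes from the mean of their own carbon source in each library, in log2 units; boxes span the quartiles, lines the median, and whiskers the lowest and highest gene. Avicel 1 lies above and Avicel 3 below 0 (medians 0.28 and -0.28), and wheat straw 1 lies below 0 (median -0.17).

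To see how far the rule carried over to libraries that had not chosen the genes, it was applied again without all libraries of 1 replicate number, and the genes so chosen were read in the libraries left out. The margin in the libraries left out compares single libraries, whereas that in the choosing libraries compares group means, so the 2 are unlike measures. Without number 1, 128 genes were chosen, 89 of them among the 102. Their median margin was 1.37 in the libraries that chose them and 0.85 in those left out, and in 115 genes (89.8%) the 3 plant libraries left out lay above the 3 others, against 13.1% of all genes. Without number 2, 86 genes were chosen, 79 of them members, and the plant libraries left out lay above the others in each of the 86 genes, against 20.7% of all genes. The median margin there was 1.66, above the 1.29 of the choosing libraries, but no Avicel library has this number. Without number 3, 79 genes were chosen, 70 of them members, with a median margin of 1.30 in the choosing and 1.29 in the left-out libraries, and the plant libraries were above the others in each of the 79 genes, against 13.6% of all genes. The lowest carry-over thus fell on the libraries numbered 1, which include Avicel 1 and wheat straw 1. Without number 1 the choice rested on Avicel 3 as the only Avicel library, and without number 3 on Avicel 1. The cause of the lower carry-over was not tested.

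Predicted functions were taken from the study's tables of 167 genes selected for high transcription on plant substrates in these libraries, so the share of annotated members says nothing of the rest. Of the 102 members, 15 were among the 167. For 8 of these a carbohydrate-active enzyme (CAZyme) family or another predicted function was given, for 7 none, and 5 of the 15 had a predicted signal peptide. The 87 other members were named by their protein ID alone.

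The CAZymes among the members were 3. Protein 7004 belongs to glycoside hydrolase (GH) family 35 and was annotated as a beta-galactosidase, an enzyme that removes terminal galactose from oligosaccharides and side chains of polysaccharides. Its normalized counts were 13533, 16222 and 15168 on aspen, 14349, 18627 and 12989 on pine, and 17586, 19166 and 21459 on straw. They were 2579, 2461 and 2535 on xylan-galactomannan, 1892 and 896 on Avicel and 1061, 1066 and 1066 on maltose. The 9 plant libraries formed a group at least 2.33 log2 units above every other library, and wheat straw had the highest mean, with 19404 ± 1948 (SD, n = 3). Between the 3 lower groups the libraries of xylan-galactomannan lay above all those of Avicel and maltose.

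Protein 9738 belongs to family GH31 and was annotated as an alpha-glucosidase with a signal peptide, a class of enzyme that releases glucose from alpha-linked glucans such as starch and from maltose itself. Normalized counts of 9738 were 3969.7, 4512 and 3721 on aspen, 4433, 4173 and 5118 on pine, and 7004, 8553 and 8792 on straw, against 983, 861 and 753 on xylan-galactomannan, 730.2 and 434 on Avicel and 819, 811 and 791 on maltose. Its spread of 0.99 was just under the limit of the rule, with the 3 wheat straw libraries above the 6 libraries of aspen and pine. The 3 maltose libraries lay within the range of those on xylan-galactomannan.

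Protein 8220 belongs to family GH88, whose known members, mostly bacterial, remove unsaturated uronic acid residues from the oligosaccharides that polysaccharide lyases release. It had normalized counts of 7865, 8380.3 and 9368 on aspen, 5345, 8822 and 5873 on pine, and 5237, 6795 and 6588 on straw. The other carbon sources gave 2214, 1376 and 2240.4 on xylan-galactomannan, 2987 and 2897 on Avicel and 1009, 956 and 884 on maltose. The pine libraries overlapped with those of aspen and of wheat straw, both Avicel libraries lay above the 3 of xylan-galactomannan, and the maltose libraries were lowest.

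A pair of members were predicted transporters of the major facilitator superfamily, and the annotation gave both of them also the enzyme number of a sugar isomerase. Protein 6154 had the smallest spread of the 8 members with a function, 0.13, with 10638, 8803 and 8363 on aspen, 8298, 7479.8 and 9713 on pine, and 9539.7, 8594 and 8132 on straw. Its values on the other carbon sources were 4900.3, 2740.4 and 3703 on xylan-galactomannan, 2755 and 3468 on Avicel and 2817, 2931 and 3221 on maltose, and these 8 libraries overlapped between all 3 groups. The second transporter, protein 6423, had 12048, 10756 and 13380.4 on aspen, 13814, 15631 and 15236 on pine, and 13805, 13505 and 14571 on straw. It reached 6249, 5219 and 5499 on xylan-galactomannan and 8112 and 3947 on Avicel, but only 783, 735 and 734 on maltose. Thus 6154 had one low level on the 3 other carbon sources, while 6423 had an intermediate level on xylan-galactomannan and Avicel that was separated from both the plant libraries and the maltose libraries.

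Protein 1284 was predicted to be a peroxiredoxin of the alkyl hydroperoxide reductase type, which reduces peroxides inside the cell. Its normalized counts were 5782, 5885 and 5376 on aspen, 4987, 5344 and 5127 on pine, and 3624, 4220.1 and 4011 on straw, and 1465, 1345 and 1637 on xylan-galactomannan, 1313 and 699.9 on Avicel and 1126, 1038 and 1258 on maltose. Wheat straw was the lowest of the plant substrates in each library, and Avicel 3 the lowest library of all. Protein 8195 had a signal peptide and an annotation as a chitinase, which would act on the chitin of fungal cell walls, but was given no CAZyme family. It had 9548, 10234 and 9281 on aspen, 8933, 11549 and 8066 on pine, and 4248, 5999 and 5915 on straw. On the other carbon sources it had 2351, 1531 and 2137 on xylan-galactomannan, 2867 and 1739 on Avicel and 1342, 1303 and 1739.8 on maltose. Here too the 3 wheat straw libraries were below the 6 of aspen and pine, by 0.85 ± 0.21 (log2 difference from aspen ± SE).

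Protein 3585 is counted among the members with a predicted function for its PSP1-like annotation, although this names an uncharacterized protein. It had 5762, 5408 and 5019 on aspen, 7419.7, 5191 and 6606 on pine, and 4949, 5249.7 and 4872 on straw, against 2087, 1269 and 1361 on xylan-galactomannan, 2294 and 1432 on Avicel and 1409, 1188 and 1467 on maltose. The plant libraries overlapped with each other, and so did the libraries of the 3 other carbon sources.

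The 2 largest margins belonged to protein 5077, which the study listed with no predicted function, and protein 9078, which was not among the genes it listed. Protein 5077 had a margin of 3.40, with 4993, 5505 and 5261 on aspen, 5918, 8807 and 5336 on pine, and 4444, 6015 and 5288 on straw. It had 564, 423 and 496 on xylan-galactomannan, 359.8 and 147 on Avicel and 420.2, 469 and 387 on maltose, and its lowest plant library was 2.98 log2 units above its highest other library. Protein 9078 had a margin of 3.07 and by far the most counts of the 102 genes. Its normalized counts were 320949, 382121 and 385350.0 on aspen, 183279, 135432 and 271206 on pine, and 210712, 258500.0 and 270468 on straw, and 25629, 17144 and 25661 on xylan-galactomannan, 29504 and 4492 on Avicel and 4595, 4143 and 6220.0 on maltose. With no correction for transcript length, it had the most counts of all genes in 8 of the 9 plant libraries and the second most in pine 2. Among the 8 other libraries it ranked between 32 in xylan-galactomannan 1 and 594 in Avicel 3.

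The other members listed by the study without a predicted function were 3895, 2712, 1718, 6441, 6135 and 1507, and they were described after their values were seen. Protein 1718 had a spread of only 0.15, with 16514, 15962 and 18209 on aspen, 19089, 18700.1 and 18146 on pine, and 14951, 17319.5 and 18258 on straw. It had 4063, 4150.5 and 3912 on xylan-galactomannan, 3569 and 2452 on Avicel and 1302, 1382 and 1269.5 on maltose, so that its other libraries stood in steps with no overlap, xylan-galactomannan above Avicel and Avicel above maltose. Protein 6441 stood in the same steps, with 1927, 1633 and 1848 on xylan-galactomannan, 872 and 576 on Avicel and 264, 295 and 343 on maltose, below 6710.2, 7093 and 10072 on aspen, 6590.1, 6129 and 7138 on pine, and 5871, 5673 and 6835 on straw.

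Protein 2712, with a predicted signal peptide, had 6022, 7819 and 6317 on aspen, 5879, 6791 and 7820.2 on pine, and 7500.5, 7541 and 7691 on straw, and 2722, 1384 and 2005 on xylan-galactomannan, 2741 and 2594 on Avicel and 1663, 1812 and 1661 on maltose. Its plant libraries overlapped with each other, and its libraries on xylan-galactomannan ranged from below those on maltose to the level of Avicel. Protein 6135 had 6459, 7114 and 6560.4 on aspen, 6147, 6266 and 7372 on pine, and 4212, 6164 and 6423 on straw, and 1046, 1296 and 1329 on xylan-galactomannan, 1829.6 and 1019 on Avicel and 1952, 1903 and 1924 on maltose. It was one of 10 members with their highest other mean on maltose, and all 3 maltose libraries lay above the 5 libraries of xylan-galactomannan and Avicel. Protein 1507 had 10547, 7879 and 8243 on aspen, 8868, 7590.4 and 8956 on pine, and 10156, 10699.9 and 9896 on straw, and 3567, 1927 and 2632 on xylan-galactomannan, 2864 and 3109 on Avicel and 1742, 1636 and 2630.1 on maltose. Both Avicel libraries of 1507 lay above the 3 on maltose, and the libraries on xylan-galactomannan overlapped with both groups.

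**Figure D3:**
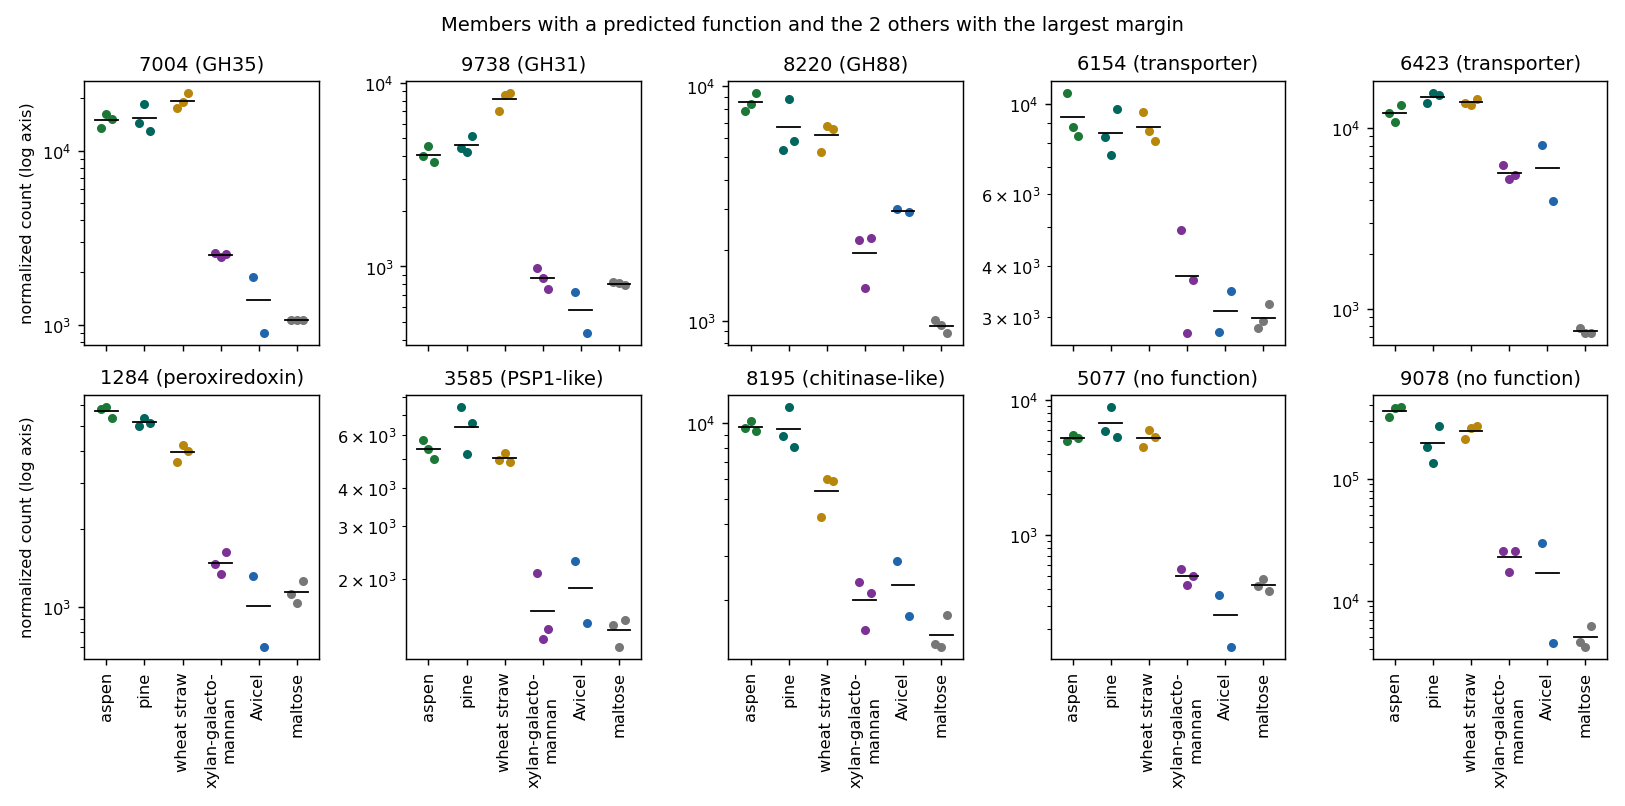
Normalized counts (log axis) of the 8 members with a predicted function and of the 2 others with the largest margin, in each library; points are libraries and lines the mean of 3 libraries, or of 2 for Avicel. In each panel the 9 plant libraries lie above the 8 others, whereas the order of xylan-galactomannan, Avicel and maltose changes from gene to gene.

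The 102 genes took a larger part of all counts on plant substrates. Their share was 6.15 ± 0.547% (SD, n = 3) for aspen, 4.24 ± 0.593% for pine and 5.12 ± 0.521% for straw. It was 1.11 ± 0.139% on xylan-galactomannan, 0.813 ± 0.266% on Avicel (n = 2) and 0.704 ± 0.0199% on maltose. Protein 9078 alone took 0.867 to 2.74% of the counts of a plant library. Without it the 101 others had 3.64 ± 0.196% (aspen), 2.96 ± 0.129% (pine) and 3.27 ± 0.275% (wheat straw), against 0.937 ± 0.105%, 0.707 ± 0.158% and 0.661 ± 0.0163% on xylan-galactomannan, Avicel and maltose. The counts were deep enough for nearly all of them, since 82 members had at least 100 counts in each library, and 1 fell below 10 in some library, with a minimum of 7.

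Fold changes were fitted over all 9162 genes that passed the filter on low counts, with edgeR on the counts as deposited. All 102 members passed this filter. The median log2 fold change of the members against maltose was 2.46 (aspen), 2.36 (pine) and 2.38 (wheat straw), where the median over all genes was -0.02, -0.03 and -0.05. Against Avicel the medians were 2.07, 1.88 and 1.85, and against xylan-galactomannan 1.82, 1.73 and 1.67. The largest of these changes reached 6.89, for a gene on wheat straw against maltose. Between the plant substrates the members had a median log2 fold change of -0.06 for pine against aspen, -0.11 for wheat straw against aspen and -0.07 for wheat straw against pine. Members went both ways, however, with changes from -1.01 to 0.89, from -0.90 to 0.998 and from -0.95 to 0.94 in these comparisons. Because the rule limited the spread of the plant means, counts of members by adjusted p cannot test their likeness. Such counts are given as a description only. Of the 102 members, 50 (66% of all genes) had an adjusted p under 0.05 in edgeR in at least 1 of these comparisons, with no limit on fold change. With the limit of 1 on the log2 fold change, 1 member was lower on pine than on aspen, at -1.01 (4.33% of all genes). The rule put no such limit on all genes, so no conclusion is drawn from these counts beside their shares. The fold changes restate the rule and are given as sizes only.

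The rule set an upper limit for xylan-galactomannan, Avicel and maltose but did not use the differences between them. All genes were fitted in the comparisons among these 3. Because the same means entered the rule through that limit, the p-values of single members come from values that the rule had used. The counts of members called are likewise given as a description beside the share over all genes. No difference from that share was tested. The order with xylan-galactomannan highest and maltose lowest held in 39 genes, and that with Avicel highest and maltose lowest in 31. Maltose was the lowest of the 3 in 70 genes, Avicel in 27 and xylan-galactomannan in 5, whereas maltose was the highest in 10. The means of the 3 groups lay within 0.5 of each other in 23 genes, within 1 in 62 and within 2 in 94, and the widest range was 3.94. A gene was called higher or lower when its Benjamini-Hochberg adjusted p over all genes tested in edgeR was under 0.05 and its log2 fold change was past 1 in that direction. By this measure 61 members were called in none of the 3 comparisons and 41 in at least 1, against 21.4% of all genes.

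On xylan-galactomannan against maltose, 31 of the 102 members (30.4%) were called higher, against 6.97% of all genes, and 0 lower, against 3.2%. A negative change was found in 2 members at an unadjusted p under 0.05, and DESeq2 called 0 lower as well. The shares over all genes at these 2 settings were not obtained. The median log2 fold change of the members was 0.63, against -0.005 over all genes, and it was positive in 87 of them. Without the requirement on fold change, 55 members were higher (23.1% of all genes) and 2 lower (21.2%). Of the named genes, the transporter 6423 rose by 2.89 ± 0.21 (log2 ± SE, adjusted p = 1.22e-08 in edgeR). Protein 9078 rose by 2.17 ± 0.45 (adjusted p = 0.00103 in edgeR) and the beta-galactosidase 7004 by 1.22 ± 0.21 (adjusted p = 0.00018 in edgeR). The GH88 enzyme 8220 was just past the limit at 1.01 ± 0.20 (adjusted p = 0.000557 in edgeR) and no longer called in several alternatives, among them those without library 1 of xylan-galactomannan (0.91), without its library 3 (0.92) or without maltose 3 (0.96). The alpha-glucosidase 9738, the transporter 6154, the peroxiredoxin 1284, the chitinase-like 8195, 3585 and 5077 had changes between 0.08 and 0.43, none with an adjusted p under 0.05.

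Among the members without a function, 6441 rose by 2.56 ± 0.19 (adjusted p = 1.55e-08 in edgeR) and 1718 by 1.60 ± 0.15 (adjusted p = 3.56e-07 in edgeR), while 6135 had the lowest change of the 102 genes, -0.68 ± 0.19 (adjusted p = 0.00819 in edgeR, short of the limit on fold change). The largest change in this comparison, 3.35 ± 0.30 (adjusted p = 1.54e-07 in edgeR), was that of protein 3895, a gene with a signal peptide and no predicted function that was singled out after its values were seen. Its normalized counts were 574, 469 and 717 on xylan-galactomannan, 334 and 306 on Avicel and 75.1, 43.3 and 50.3 on maltose. On the plant substrates 3895 had 7183, 3253 and 4086 on aspen, 4261, 6265 and 3957 on pine, and 7657, 6926 and 5884 on straw. Its maltose libraries were thus lower than those of any other carbon source, and its level on xylan-galactomannan and Avicel was intermediate.

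On Avicel against maltose, 17 members (16.7%) were called higher, against 6.01% of all genes, and 2 (1.96%) lower, against 5.83%. The median log2 fold change was 0.35, against -0.01 over all genes, and 75 members had a positive change. These counts depended on which Avicel library was used. The shares over all genes belong to the fit of all 17 libraries and were not obtained for fits without a library. With Avicel 1 left out, the higher of both in most members, 10 members were called higher and 4 lower, and without Avicel 3 there were 30 and 0. Without maltose 3 the number of lower calls was 1. With no limit on fold change, 36 members were higher (16.6% of all genes) and 7 lower (16.6%).

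The transporter 6423 rose on Avicel by 2.98 ± 0.22 (adjusted p = 7.31e-09 in edgeR), and between 2.40 and 3.43 when any 1 library was left out. The GH88 enzyme 8220 rose by 1.60 ± 0.21 (adjusted p = 1.31e-05 in edgeR), with 1.55 to 1.65 under the same removals. Protein 9078 was called at 1.74 ± 0.48 (adjusted p = 0.00926 in edgeR), but its normalized counts in both Avicel libraries were 29504 and 4492, and without Avicel 1 the change was -0.15. The beta-galactosidase 7004 was not called, at 0.36 ± 0.23 (adjusted p = 0.25 in edgeR), with a library above and a library below the maltose values. The alpha-glucosidase 9738 (-0.50 ± 0.19), the chitinase-like 8195 (0.63 ± 0.23) and 5077 (-0.78 ± 0.28) had an adjusted p of 0.0487, 0.0423 and 0.0378 in edgeR but did not reach the limit on fold change, which 5077 passed without Avicel 1. Without Avicel 1 and without Avicel 3 the changes were -0.89 and -0.14 for 9738, 0.25 and 0.97 for 8195, and -1.53 and -0.24 for 5077. The members called lower, protein 3148 at -1.31 ± 0.21 and protein 334 at -1.11 ± 0.21 (adjusted p = 9.85e-05 and 0.00042 in edgeR), had no predicted function and were named after their values were seen. Protein 3148 had 4999.7 and 2907 on Avicel and 10049.8, 9464 and 9332 on maltose, with no overlap. Protein 334 had 265 and 187 on Avicel and 426, 406 and 593 on maltose, again with no overlap. Without Avicel 3 neither was called, at -0.94 for 3148 and -0.84 for 334, and without Avicel 1 they had -1.72 and -1.35.

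**Figure D4:**
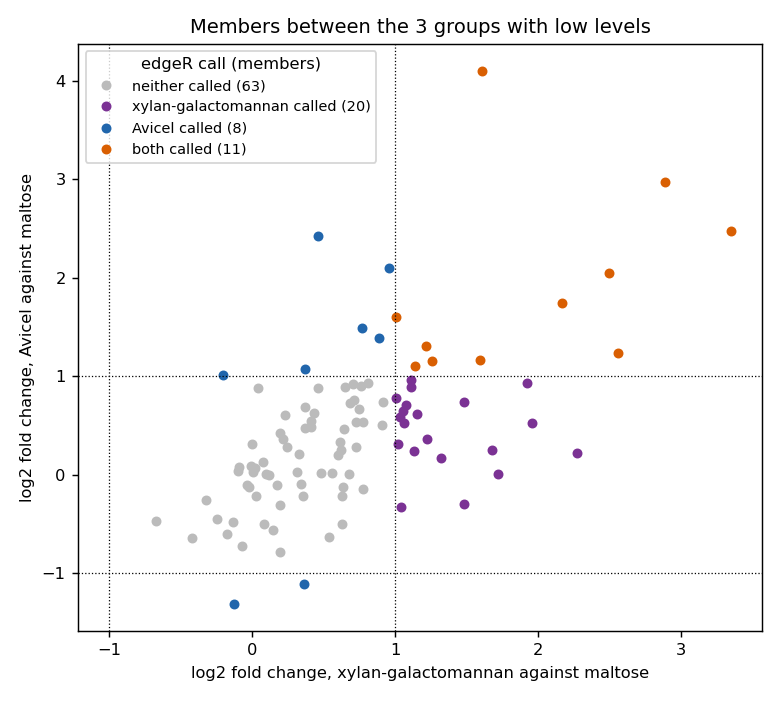
Log2 fold change of each of the 102 genes against maltose, on xylan-galactomannan (horizontal axis) and on Avicel (vertical axis), from the edgeR fit; colours give the calls and dotted lines the limits of -1 and 1. Both axes share the 3 maltose libraries. Of the 102 genes 11 were called higher in both comparisons, and the share of all genes so called was not obtained. None of the 102 was called lower on xylan-galactomannan (3.2% of all genes).

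On xylan-galactomannan against Avicel, both with the same maltose concentration, 12 members were called higher (6.93% of all genes) and 4 lower (5.1%). The median log2 fold change was 0.23, against 0.02 over all genes. Here too the shares over all genes were not obtained for fits without a library. Without Avicel 1 there were 27 higher and 2 lower calls, and without Avicel 3 there were 8 and 7. With no limit on fold change, 29 members were higher (20.9% of all genes) and 7 lower (19.3%). Among the 8 members with a function, 5077 and 9078 none was called, although 7004 was higher at 0.87 ± 0.24 and 5077 at 0.98 ± 0.28, with adjusted p of 0.00774 and 0.0105 in edgeR and a fold change just short of the limit. Without Avicel 1, 7004 (1.49), 1284 (1.08), 5077 (1.75) and 9078 (2.34) were called higher, and 5077 (1.07) also without xylan-galactomannan 2. Proteins 3148 and 334, lower on Avicel than on maltose, were higher on xylan-galactomannan than on Avicel, by 1.19 ± 0.21 and 1.47 ± 0.21. Without Avicel 3, 3148 was not called (0.84) and 334 had 1.23. The 4 members that were lower on xylan-galactomannan were 161, 2086, 10182 and 7585. They were not among the genes the study listed and were named after their values were seen. Protein 161 differed most, by -2.49 ± 0.34 (adjusted p = 2.17e-05 in edgeR), and it was also the member with the largest change on Avicel against maltose, 4.10 ± 0.38. Without Avicel 1 these changes were -1.46 and 3.10, and without Avicel 3 they were -3.10 and 4.73, each of them called. Of the 4, those no longer called without Avicel 1 were 2086 (-1.07) and 7585 (-0.32). The normalized counts of 161 were 153, 113 and 138 on xylan-galactomannan, 1156 and 372 on Avicel and 47.1, 52.8 and 29.5 on maltose, and on the plant substrates they were 2833, 3852 and 2822 on aspen, 1959, 1341 and 1517 on pine, and 1526, 2238 and 2606 on straw. Library 1 of Avicel was thus close to the lowest plant library of this gene, and library 3 well below it.

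Of the 8 members with a function, 6 fell into lists of annotated genes of this strain that the study had chosen on these same libraries, so that their direction on plant substrates is no independent evidence. Of 27 CAZyme genes, 3 of them members, 22 were called higher on aspen against maltose (13.1% of all genes), 26 on pine (13.7%) and 24 on wheat straw (9.53%), and 0 lower (10%, 9.34% and 6.13%). Of 20 membrane transporters, 2 of them members, 16, 18 and 17 were called higher in these comparisons. Of 11 other oxidoreductases, 1 of them a member, 10, 9 and 9 were called, and of 5 cytochrome P450 genes, none a member, 4, 5 and 5. The study's choice of these genes also used the maltose and Avicel values of these libraries. Calls of the lists in the comparisons that follow are therefore a description too, and those on Avicel were not repeated without either of its libraries. In them 8 CAZymes were higher on xylan-galactomannan than on maltose and 8 on Avicel than on maltose, with medians of 0.51 and 0.36. The shares over all genes were 6.97% and 6.01%. The transporters had 6 and 4 higher calls, the other oxidoreductases 4 and 1, and the P450 genes 3 and 1. Lower calls in these comparisons were 2, both among the other oxidoreductases on Avicel. On xylan-galactomannan against Avicel, 7 CAZymes were higher and 4 lower, 1 transporter was higher, 5 other oxidoreductases were higher and 1 lower, and 2 P450 genes were higher, where 6.93% of all genes were higher and 5.1% lower.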

How the data were processed

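Mycelium of Pycnoporus cinnabarinus CIRM-BRFM 137 was profiled by RNA-seq in 17 libraries from 6 carbon sources, grouped by their labels. The deposited count table holds raw read counts per gene model (10442, of which 829 had no count), which the authors made with TopHat2 and HTSeq, according to the submitters' processing notes. In the other deposited table, 9167 gene models have a normalized signal, the same counts divided by the authors' size factors. The ratio of both tables was constant within each library (largest relative spread 9.79e-15). The notes name DESeq 1.5 and the study's methods DESeq2. For strand use, multi-mapped reads and most tool versions the entry is: not given in the sources used here. Near-identical genes therefore have uncertain counts. By the study's methods the replicates were independent cultures, which is not stated for xylan-galactomannan, where p-values measure only the spread between these libraries.

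Members were selected on the normalized table with a pseudocount of 1. Differential transcription was tested on the counts with edgeR 4.0.16 in R 4.3.3 (filterByExpr, TMM scaling, quasi-likelihood fit over all 17 libraries with group as the only term), with Benjamini-Hochberg adjustment over 9162 genes, and tested on simulated data first. Standard errors (SE) were obtained from each fold change and its F statistic. Alternatives were other scalings, no filter, DESeq2 1.42.0, Bonferroni, no fold threshold, a fit of only the groups compared, a replicate block, other thresholds of the rule and removal of single libraries. Named genes were the members with a predicted function and the 2 others with the largest margin. Members, lists and tests were chosen with earlier results of these data known.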

Additional observations from a re-analysis of the deposited data

How the results depend on the processing

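The number of members was 102, and 33 with a margin of 1.5; it was between 77 and 150 with the other thresholds, pseudocounts, group medians or TMM factors, and 83 (without Avicel 3) to 118 (without Avicel 1) when 1 library was left out. Of the 102 genes, 57 (55.9%) were kept under each removal of 1 library. Bonferroni adjustment left 15 members higher on xylan-galactomannan against maltose, 8 higher and 0 lower on Avicel against maltose, and 6 higher and 1 lower on xylan-galactomannan against Avicel. With no fold threshold there were 55 higher and 2 lower, 36 and 7, and 29 and 7. Leaving out 1 library gave 25 to 32 higher and 0 lower calls on xylan-galactomannan against maltose, 10 to 30 higher and 0 to 4 lower on Avicel against maltose, and 8 to 27 higher and 2 to 7 lower on xylan-galactomannan against Avicel. The other scalings, no filter, DESeq2 and the fit of only the groups compared stayed within 1.5 times of each count. Shares over all genes were not obtained for these alternatives or for the replicate block below, except with no fold threshold, where they are given above. The counts are therefore a description of the members alone.

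Among the named genes 13 changes turned direction, none of them called after the turn. On xylan-galactomannan against maltose, leaving out 1 library gave -0.016 (without xylan-galactomannan 1) to 0.19 for 9738 and -0.061 (same library) to 0.32 for 3585. On Avicel against maltose it gave -0.25 (without Avicel 1) to 0.83 for 7004, -0.15 (without Avicel 1) to 2.56 for 9078, -0.70 to 0.20 (without Avicel 3) for 1284, and -0.12 (without Avicel 3) to 0.22 for 6154, with -0.013 without maltose 1 and -0.038 under upper-quartile scaling for the last. On xylan-galactomannan against Avicel it gave -0.52 to 0.52 (without Avicel 1) for 6423, -0.54 to 0.14 (without Avicel 1) for 3585, -0.51 to 0.21 (without Avicel 1) for 8195 and -0.37 (without Avicel 3) to 2.34 for 9078. The cause of these turns was not tested.

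The correlation of deviations was over 0.1 in 13 of 40 pairs of libraries from different carbon sources that shared a replicate number (median 0.046) and in 10 of 80 that did not (median -0.028). Most of the 13 were pairs of libraries numbered 1, whose correlations ran from -0.24 (wheat straw and Avicel) to 0.22 (aspen and pine). Since not all pairs were over 0.1, the numbers were not taken as pairs in the main fit, although the 3 pairs of aspen with xylan-galactomannan were over it (0.15, 0.12 and 0.24). This does not exclude an influence shared by libraries of the same number, and its cause was not tested. Within the comparisons tested, the correlations of libraries with the same number were 0.0033 to 0.079 for xylan-galactomannan and maltose, 0.036 and 0.071 for Avicel and maltose, and 0.13 and 0.069 for xylan-galactomannan and Avicel. With a replicate block the counts were 30 higher and 0 lower on xylan-galactomannan against maltose, 16 and 2 on Avicel against maltose, and 13 and 4 on xylan-galactomannan against Avicel, and 6154 on Avicel against maltose had -0.045.

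Precision is limited by the 2 Avicel libraries and by 3 libraries in each other group.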

Other observations

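The departures of single libraries were not particular to the 102 genes. Among 46 genes that met the margin and level of the rule but had a spread of 1 or more, 43 were higher in Avicel 1 than in Avicel 3, with a median difference of 0.70 on the log2 scale, and 45 were lower in wheat straw 1 than in the mean of wheat straw 2 and 3, with a median of -0.42. Among the 437 other genes whose 9 plant libraries lay above the 8 others, 359 (82.2%) were higher in Avicel 1, with a median of 0.24, and 337 were lower in wheat straw 1, with a median of -0.11. For the 102 members the median for wheat straw was -0.26. All 46 are also among the 437.

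Consecutive protein IDs occurred in 4 pairs of members, 4034 and 4035, 4630 and 4631, 5076 and 5077, and 8219 and 8220. This is 4 of the 99 members whose next ID was in the normalized table (4.04%), where members are 1.11% of the table. The margins were 2.44 and 3.40 for 5076 and 5077 and 1.61 and 1.07 for 8219 and 8220. Whether genes with consecutive IDs lie side by side in the genome or share reads was not tested.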
